A study of Mus musculus with 10 samples.

Results

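The 9 genes described here make, move and destroy retinoic acid: Stra6, Rdh10, Dhrs3, Aldh1a1, Aldh1a2, Aldh1a3, Cyp26a1, Cyp26b1 and Cyp26c1. They were taken by gene symbol from the 52636 Ensembl identifiers of the deposited count tables, and each symbol matched 1 identifier. Expression was measured by RNA sequencing in 4 libraries of mouse E14 embryonic stem cells, a blastocyst-derived line, 2 from unedited cells (WT) and 2 from cells with a deleted CTCF binding site (CBE-KO). CTCF is a protein that organises chromatin loops. Both groups had been grown with LIF and the inhibitors PD0325901 and CHIR99021, then replated without these and given retinoic acid for 24 h. The protocol gives its dose with the unit of length µm, which is read here as 2 µM. No RNA-seq library of untreated cells was among the samples, so the comparison is between genotypes under added retinoic acid and not between treated and untreated cells. The labels do not say whether CBE-KO is 1 clone or several. A further 6 Capture-C samples of the same genotypes were not analysed here.

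Cells take up vitamin A as retinol, which the membrane receptor Stra6 accepts from its carrier in the blood. Retinol is oxidised to retinal by Rdh10, and Dhrs3 carries out the reverse step, returning retinal to retinol. Retinal dehydrogenases of the Aldh1a family oxidise retinal to retinoic acid, the ligand of the nuclear receptors Rar and Rxr. Cytochrome P450 enzymes of the Cyp26 family hydroxylate retinoic acid and so remove it. Several of these genes are themselves induced by retinoic acid in many tissues, Cyp26a1 and Dhrs3 among them, which forms a feedback loop in the embryo.

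Rar and Rxr pairs bind direct repeats of a hexamer, and the repeat with a spacer of 5 bases (DR5) is the classic form. The promoter of Cyp26a1 holds this form, so it is shown beside that of the receptor gene Rarb, the textbook example. Capitals mark the hexamers, and each stretch reads 5′ to 3′ on the strand of its gene.
Cyp26a1: taaagaTGAACTttgggTGAACTaatttg
Rarb: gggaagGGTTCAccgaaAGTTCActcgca
The Cyp26a1 stretch lies at chr19:37697770-37697798 on the plus strand and the Rarb stretch at chr14:16575507-16575535 on the minus strand (RefSeq, GRCm38.p6, the assembly also called mm10). In Cyp26a1 the repeat runs from base -32 to base -16 of the RefSeq start and is read on the opposite strand, and in Rarb it runs from -53 to -37. The letters TATAAA begin at base 30 after the RefSeq start in the same Cyp26a1 window, and were present on either strand in 13.6% of all windows.

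The search covered the hexamer AGGTCA, its variant with T in the middle (AGTTCA), and the forms of these that begin with G (GGGTCA and, for the variant, GGTTCA), repeated in the same direction with spacers of 1, 2 or 5 bases, on both strands, in windows from 250 bases before to 50 after each RefSeq start. Of 9 members, 7 had such windows, 13 in all because some genes have several starts; Rdh10 and Aldh1a3 had none in the table. Only the Cyp26a1 window held a repeat among these 13. Over all 32851 windows, 32 (0.0974%) held a DR5 and 193 (0.588%) held any of the 3 forms. Single hexamers were found in 3 of the 13 member windows, those of Cyp26a1, Stra6 and Aldh1a1, against 43.7% of all windows. A match is a description of these letters and says nothing of binding.

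For comparison with Cyp26a1, the sequence upstream of its annotated gene body is printed with that of its paralogue Cyp26b1 and of Aldh1a2, since the counts of these 3 genes went different ways or by different amounts. The Cyp26a1 and Cyp26b1 stretches end where their annotated genes begin, at bases -71 and -99, upstream of the starts used for their windows. The Aldh1a2 stretch runs to base -1. The DR5 shown above lies inside the annotated Cyp26a1 gene and so outside the Cyp26a1 stretch. None of the 3 stretches holds any of the repeats, for Cyp26a1 because of where the stretch ends.
Cyp26a1: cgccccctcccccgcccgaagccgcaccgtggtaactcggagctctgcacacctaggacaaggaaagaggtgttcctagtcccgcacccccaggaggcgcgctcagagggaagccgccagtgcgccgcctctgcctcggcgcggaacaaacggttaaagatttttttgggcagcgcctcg
Cyp26b1: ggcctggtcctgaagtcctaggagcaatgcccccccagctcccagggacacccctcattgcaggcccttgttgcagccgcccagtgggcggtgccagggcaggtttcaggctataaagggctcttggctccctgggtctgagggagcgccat
Aldh1a2: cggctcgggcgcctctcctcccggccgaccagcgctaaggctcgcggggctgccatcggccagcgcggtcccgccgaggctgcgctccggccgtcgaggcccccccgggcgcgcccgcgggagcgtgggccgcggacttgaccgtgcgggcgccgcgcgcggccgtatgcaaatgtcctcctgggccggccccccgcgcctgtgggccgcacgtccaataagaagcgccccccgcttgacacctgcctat
They lie at chr19:37697558-37697737 (plus strand), chr6:84593909-84594060 (minus strand) and chr9:71215539-71215788 (plus strand) of GRCm38.p6.

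The libraries held 14108038 to 15632960 counts, so that 3 counts, the floor used here, stood at 0.185 to 0.218 CPM (counts relative to library size after trimmed-mean scaling, TMM). Replicates differed by more than sampling noise, with a chi-square per degree of freedom of 3.40 for WT and 2.70 for CBE-KO, against at least 20.3 between groups. Nothing in the labels beyond the study's word for biological replicates says how the cultures were separated, so p-values measure the spread between these libraries. The pluripotency marker Pou5f1 was detected in all 4 libraries. It stood at 970 to 1082 CPM in WT and at 814 to 816 CPM in CBE-KO. The 5 Y-linked genes checked summed to 0.871 to 1.30 CPM in WT and to 150 to 159 CPM in CBE-KO. E14 is a male line, so the groups differ in more than the labelled element, and for every difference below the element and this second difference cannot be told apart.

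Of the 9 members, 7 had enough counts to be tested and 5 of these passed, 4 higher and 1 lower in CBE-KO (edgeR quasi-likelihood test, Benjamini-Hochberg adjusted p under 0.05 over all genes tested). The same rule called 43.1% of all 16005 tested genes, 21.6% as higher and 21.5% as lower. The retinol receptor gene Stra6, the retinal reductase gene Dhrs3, the retinal dehydrogenase gene Aldh1a2 and the retinoic acid hydroxylase gene Cyp26a1 rose, by 1.95 to 3.25 times. Cyp26b1 was the gene that fell, by a small amount and with an unstable call. Rdh10 and Cyp26c1 did not pass, and Aldh1a1 and Aldh1a3 had too few counts to pass the filter on low counts. TMM-scaled CPM of the groups did not overlap for any of the 7 tested members, which by itself says little, since 70.4% of all tested genes had groups that did not overlap.

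**Figure D1:**
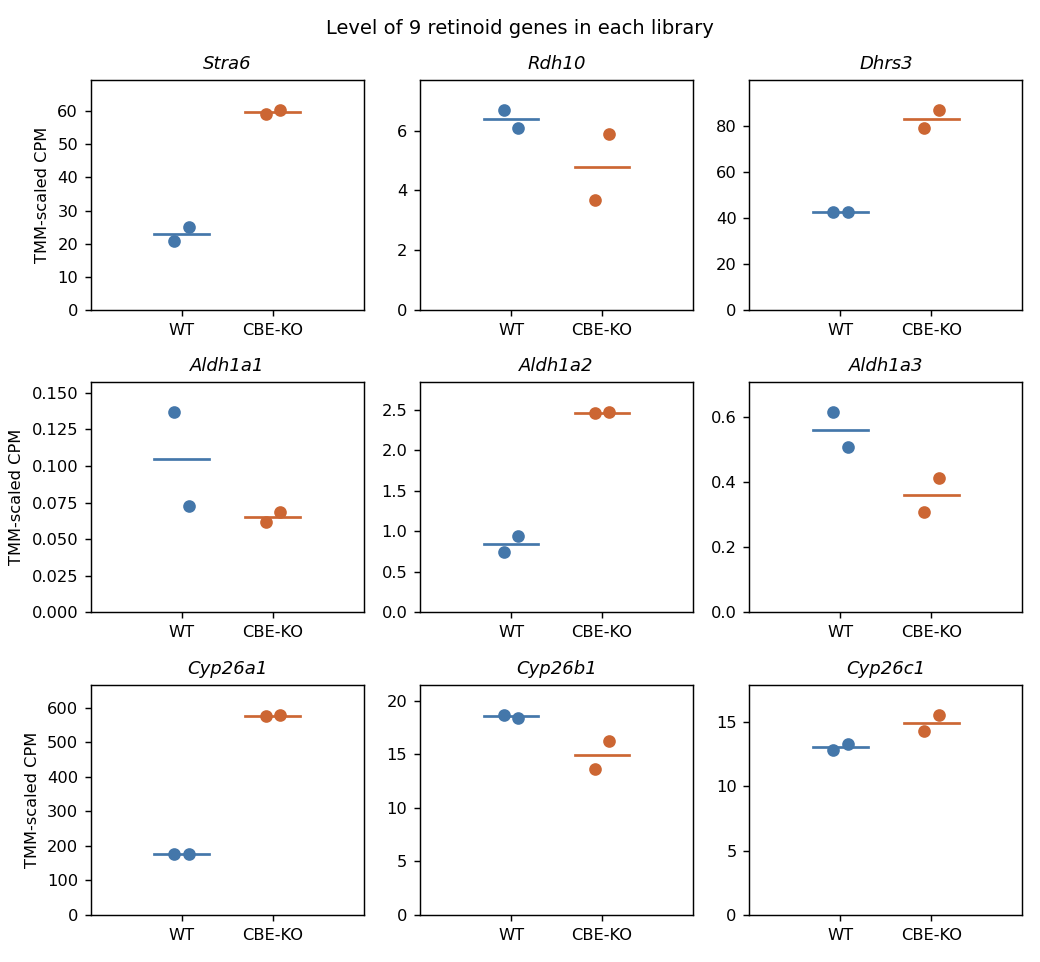
TMM-scaled CPM (vertical axes, each from 0) of the 9 genes in each WT (blue) and CBE-KO (orange) library; points are libraries and lines are means of 2. The 4 genes that rose, Stra6, Dhrs3, Aldh1a2 and Cyp26a1, have CBE-KO points well above the WT points. For Rdh10, 1 of 2 CBE-KO points lies close to WT. For Cyp26b1 both CBE-KO points lie below WT, 1 of them nearer to it.

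Uptake of retinol is represented by Stra6 (ENSMUSG00000032327; chromosome 9, 58063793 to 58154004). Its counts were 305 and 344 in WT, against 962 and 881 in CBE-KO, or 20.8 and 24.97 CPM against 59.2 and 60.4 CPM. Both CBE-KO libraries thus lay far above both WT libraries, and the WT libraries differed more from each other than the CBE-KO libraries did. The mean went from 22.9 ± 2.92 to 59.8 ± 0.899 CPM (SD, n = 2 each), 2.61 times, or 1.39 ± 0.09 as a log2 fold change (SE; edgeR adjusted p = 1.09e-09) and a 95% interval of 1.21 to 1.57.

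The interconversion of retinol and retinal gave opposite signs for its 2 members, of which only 1 passed the test. Dhrs3 (ENSMUSG00000066026; chromosome 4, 144892534 to 144928209), which returns retinal to retinol, stood at 42.6 and 42.4 CPM in WT and at 79.0 and 86.9 CPM in CBE-KO. The WT libraries were nearly equal and the CBE-KO libraries lay well above them, 1.95 times in the mean. On the log2 scale the difference was 0.96 ± 0.07 (SE; edgeR adjusted p = 5.30e-09), with a 95% interval of 0.82 to 1.11.

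Rdh10 (ENSMUSG00000025921; chromosome 1, 16105882 to 16132550), which oxidises retinol to retinal, had 98 and 84 counts in WT, against 60 and 86 in CBE-KO. These are 6.70 and 6.10 CPM against 3.69 and 5.90 CPM, so CBE-KO replicate 1 was low while replicate 2 was close to WT. The log2 difference of -0.43 ± 0.23 (SE; edgeR adjusted p = 0.141) did not pass, and its 95% interval ran from -0.90 to 0.049. The value rests on single libraries: without CBE-KO replicate 1 it was -0.12 (adjusted p = 0.769), and without CBE-KO replicate 2 it was -0.79 and passed (adjusted p = 0.0168). The ratio of Dhrs3 to Rdh10 counts within a library, which needs no scaling between libraries, was 6.36 and 6.95 in WT, against 21.4 and 14.7 in CBE-KO. Ratios of counts depend on the lengths of both genes, so only their change between groups is read here, 2.67 times. With 2 libraries against 2, an exact permutation test cannot give a two-sided p below 0.333, the value it gave.

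Retinoic acid synthesis from retinal is shared by the Aldh1a genes, all of which were at low levels. Aldh1a2 (ENSMUSG00000013584; chromosome 9, 71215789 to 71296243), the main enzyme of the early embryo, had 11 and 13 counts in WT, against 40 and 36 in CBE-KO. On the CPM scale this was 0.752 and 0.944 against 2.46 and 2.47, with the CBE-KO libraries close together and both above WT. The mean rose 2.91 times, or 1.53 ± 0.36 on the log2 scale (SE; edgeR adjusted p = 0.00207). Its 95% interval of 0.78 to 2.29 was the widest among the 7 tested members, at counts of 11 to 40.

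Aldh1a3 (ENSMUSG00000015134; chromosome 7, 66390892 to 66427477) had 9, 7, 5 and 6 counts in WT 1, WT 2, CBE-KO 1 and CBE-KO 2. Without the expression filter its log2 difference was -0.65 ± 0.70 (SE; edgeR adjusted p = 0.626), so no difference was detectable at this depth. Aldh1a1 (ENSMUSG00000053279; chromosome 19, 20492583 to 20643463) had 2, 1, 1 and 1 counts, at or under the floor of 3 counts in every library, and no fold change is given for it. Of the retinal dehydrogenase genes, Aldh1a2 alone passed the filter on low counts.

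Breakdown of retinoic acid falls to the 3 Cyp26 genes, and they differed among themselves. Cyp26a1 (ENSMUSG00000024987; chromosome 19, 37697738 to 37701536), the enzyme most tied to early embryonic retinoic acid, had 2602 and 2451 counts in WT, against 9356 and 8458 in CBE-KO. Scaled, these are 177.8 and 177.9 CPM in WT and 575.4 and 580.2 CPM in CBE-KO, so replicates were almost equal within each group and the groups were far apart. The mean was 3.25 times higher in CBE-KO, or 1.70 ± 0.05 on the log2 scale (SE; edgeR adjusted p = 3.60e-14), with a 95% interval of 1.60 to 1.80. Of all 16005 tested genes, 3 had a smaller p and 386 had a larger log2 fold change.

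Cyp26b1 (ENSMUSG00000063415; chromosome 6, 84571414 to 84593908) stood at 18.7 and 18.4 CPM in WT and at 13.7 and 16.3 CPM in CBE-KO. CBE-KO replicate 1 was the lowest library and replicate 2 lay between it and WT, without overlap of the groups. The log2 difference was -0.32 ± 0.12 (SE; edgeR adjusted p = 0.0438), a WT mean 1.24 times that of CBE-KO, with a 95% interval of -0.57 to -0.060. The call was lost in DESeq2 (adjusted p = 0.173), with upper-quartile scaling (0.0690), with library totals alone (0.168), with the replicate number as a block under upper-quartile scaling (0.0524), and without WT replicate 1 (0.103), WT replicate 2 (0.0722) or CBE-KO replicate 1, where the log2 fold change was -0.19 (adjusted p = 0.308).

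Cyp26c1 (ENSMUSG00000062432; chromosome 19, 37685112 to 37693320) stood at 12.8 and 13.3 CPM in WT and at 14.3 and 15.6 CPM in CBE-KO. Its log2 difference of 0.19 ± 0.13 (SE; edgeR adjusted p = 0.248) did not pass, and the 95% interval of -0.078 to 0.46 leaves room for a fold of 0.948 to 1.37. Cyp26c1 is the neighbour of Cyp26a1 on chromosome 19, in the same orientation, with 4417 bases between the annotated genes. The interval of Cyp26c1 does not reach that of Cyp26a1.

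Ratios within each library set the paralogues against each other without any scaling between libraries. The ratio of Cyp26a1 to Cyp26c1 counts was 13.8 and 13.4 in WT, against 40.3 and 37.3 in CBE-KO, a change of 2.85 times. That of Cyp26a1 to Cyp26b1 was 9.50 and 9.65 in WT, against 42.1 and 35.7 in CBE-KO, a change of 4.05 times. The ratio of Cyp26c1 to Cyp26b1 moved by 1.42 times. Cyp26a1 counts also grew relative to Dhrs3, by 1.67 times, and to Stra6, by 1.24 times. For each of these 5 ratios the libraries of the groups did not overlap, and the exact permutation p was again 0.333 (two-sided), the smallest that 4 libraries allow.

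**Figure D2:**
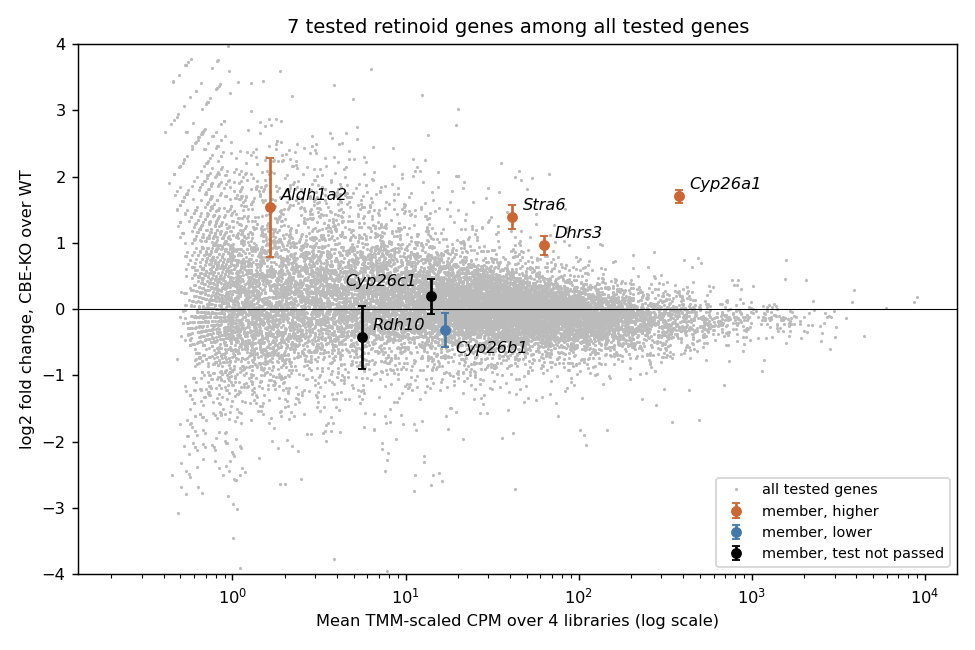
Log2 fold change of CBE-KO over WT (vertical axis, drawn from -4 to 4, which leaves out 25 genes) against mean TMM-scaled CPM over 4 libraries (log axis) for all tested genes (grey) and the 7 tested members (coloured, bars are 95% intervals). Cyp26a1, at a log2 fold change of 1.70, sits above the bulk of genes of like abundance, while Cyp26b1, Cyp26c1 and Rdh10 lie within the grey cloud.

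The direction of all 7 tested members was the same in every alternative analysis run, among them other scalings, DESeq2, other filters and fits with 1 library left out. Stra6, Dhrs3, Aldh1a2 and Cyp26a1 passed in each of the 14 alternatives. Across them the log2 fold change of Cyp26a1 ranged from 1.69 to 1.80, that of Stra6 from 1.26 to 1.51, that of Dhrs3 from 0.89 to 1.07 and that of Aldh1a2 from 1.38 to 1.70. Cyp26c1 passed in none of the 14 (adjusted p from 0.0710 to 0.593). When a change of at least 1 on the log2 scale was also required, 3 members passed, Stra6, Aldh1a2 and Cyp26a1, all higher. That rule called 8.64% of all tested genes, 6.09% as higher.

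**Figure D3:**
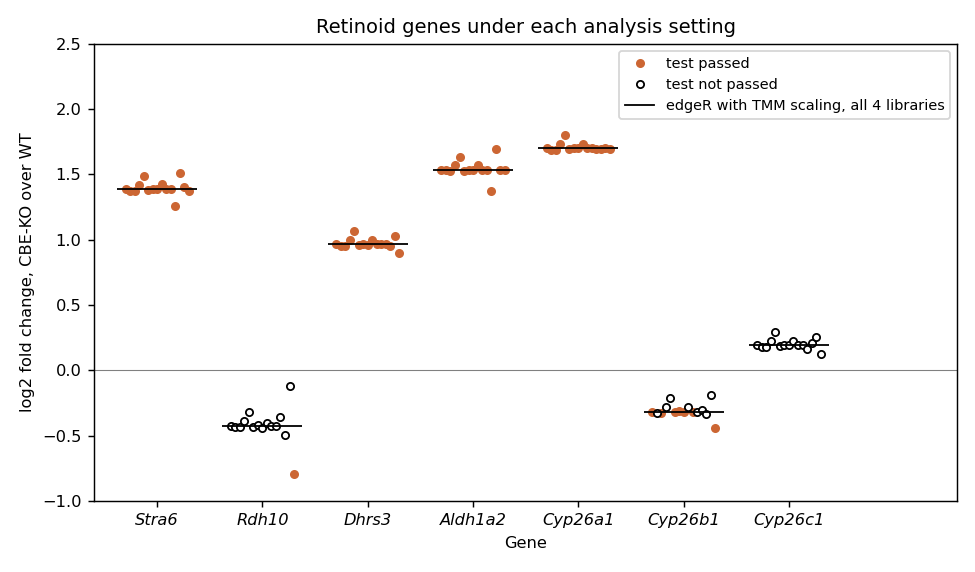
Log2 fold change of CBE-KO over WT (vertical axis) of the 7 tested members under edgeR with TMM scaling (black lines) and each alternative setting (points; filled where the test passed, open where it did not). Stra6, Dhrs3, Aldh1a2 and Cyp26a1 have filled points only, Cyp26c1 open points only, and Cyp26b1 both.

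The rest of the pathway was described with a list of 53 other genes of retinoid uptake, storage and conversion. Of these, 32 were tested and 20 passed, 14 higher and 6 lower, beside the 43.1% of all genes. The median log2 fold change was 0.17, against 0.0067 over all tested genes. A further 15 genes of the list were at or under 3 counts in every library, among them the liver and eye genes Ttr, Rbp2 and Rpe65.

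Storage and carotenoid genes among the largest changes had few counts. Lrat, which esterifies retinol for storage, had 8 and 21 counts in WT, against 56 and 29 in CBE-KO (log2 fold change 1.41, edgeR adjusted p = 0.0106), but did not pass without WT replicate 1 (adjusted p = 0.0862), without CBE-KO replicate 1 (0.169) or in DESeq2 (0.0589). Its log2 fold change was 0.84 without WT replicate 1 and 2.30 without WT replicate 2. Bco2, a carotenoid-cleaving oxygenase, had 10 and 2 counts against 26 and 24 (log2 fold change 1.92). Its log2 fold change was 3.41 without WT replicate 1 and 1.23 without WT replicate 2, where it did not pass. Rdh1 had 2 and 2 counts against 29 and 17. It passed the filter on low counts only through CBE-KO, as did Bco2, so a call for either could only be higher. Rdh1 and Bco2 are counted among the genes called higher, and no p-value is given for either. Rdh1 was under the floor in WT and has close paralogues among which reads may be shared, so no fold change is given for it. For Lrat, and for Rdh5 below, a WT library (8 and 3 counts) fell short of the filter on low counts. Both genes thus also needed CBE-KO counts to be tested, which favours a call of higher. Rdh5 had 11 and 3 counts against 26 and 15 (1.41, edgeR adjusted p = 0.0378), a call lost in DESeq2 (adjusted p = 0.191), without WT replicate 2 (0.310) and without CBE-KO replicate 1 (0.299), and its log2 fold change was 0.81 without WT replicate 2 and 2.56 without WT replicate 1.

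Aox1, an aldehyde oxidase able to act on retinal, rose from 1.32 ± 0.640 to 3.84 ± 0.575 CPM (SD, n = 2 each; log2 fold change 1.52, edgeR adjusted p = 0.000973). That log2 fold change was 2.13 without WT replicate 1 and 1.11 without WT replicate 2, and passed in both. Rlbp1, a retinal-binding protein of the visual cycle, fell from 14.1 ± 2.59 to 7.45 ± 0.343 CPM (log2 fold change -0.92, edgeR adjusted p = 0.000172). The abundant genes of the list moved by little. Por, the reductase that supplies electrons to cytochrome P450 enzymes including the Cyp26 proteins, went from 151 ± 4.35 to 204 ± 0.936 CPM (0.43, edgeR adjusted p = 1.71e-06). The lipoprotein receptor gene Lrp1 rose by 0.25 on the log2 scale, while the aldo-keto reductase gene Akr1b3 fell by 0.28 and the alcohol dehydrogenase gene Adh5 by 0.25, and all 3 passed.

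Receptors and binding proteins act on the product of the pathway. Of 19 such genes, 18 were tested and 12 passed, 7 higher and 5 lower, beside 21.6% of all tested genes higher and 21.5% lower. The median log2 fold change was 0.030, against 0.0067 over all tested genes. Among receptors, Rara rose from 117 ± 3.92 to 155 ± 2.54 CPM (0.41, edgeR adjusted p = 5.18e-06), and Rarb rose from 4.70 ± 0.947 to 8.86 ± 0.959 CPM (0.91, edgeR adjusted p = 0.00100). Rarg fell from 477 ± 27.7 to 299 ± 14.2 CPM (-0.68, edgeR adjusted p = 1.78e-08) and Rxra fell by 0.32 on the log2 scale (edgeR adjusted p = 0.00241). Rxrb had a log2 fold change of 0.0096 (edgeR adjusted p = 0.917), whose sign turned without WT replicate 2 or CBE-KO replicate 2, and also in DESeq2 and under its size factors. Rxrg counts were 24 and 28 in WT, against 12 and 11 in CBE-KO (-1.29, edgeR adjusted p = 0.0134), a call lost in DESeq2 (adjusted p = 0.109) and without WT replicate 2 (0.109), CBE-KO replicate 1 (0.0848) or CBE-KO replicate 2 (0.0668).

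All 3 cytosolic carriers of retinoic acid were higher in CBE-KO. Crabp2, which hands retinoic acid to its receptors, rose from 5.84 ± 1.69 to 13.8 ± 0.836 CPM (SD, n = 2 each; log2 fold change 1.23, edgeR adjusted p = 2.65e-05). Crabp1, linked to its breakdown, rose by 0.82 and Fabp5 by 0.89 on the log2 scale (edgeR adjusted p = 7.10e-05 and 0.000300). Fabp5 has processed copies in the genome, so its counts are less certain. The coactivator gene Ncoa3 fell from 379 ± 10.6 to 230 ± 12.0 CPM (-0.72, edgeR adjusted p = 5.22e-09).

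Textbook targets of retinoic acid outside the 9 genes were listed as well. Of 34, 32 were tested and 22 passed, 19 higher and 3 lower, beside 21.6% of all tested genes higher and 21.5% lower. The median log2 fold change was 0.41, against 0.0067 over all tested genes. The list was drawn up with earlier results of these libraries known, so its direction is not independent evidence. Tshz1 rose from 0.986 ± 0.0421 to 8.88 ± 0.920 CPM (3.16, edgeR adjusted p = 2.70e-08), Foxa1 by 1.74 and Hoxa3 by 1.34 on the log2 scale. Nr2f1 counts were 1 and 0 in WT, under the floor, against 19 and 22 in CBE-KO. Those of Nr2f2 were 5 and 6 in WT, against 19 and 19 in CBE-KO. Both genes passed the filter on low counts only through CBE-KO, so a call for either could only be higher. Both are counted among the targets called higher, and no p-value is given for either. Nr2f2 rose by 1.65 on the log2 scale, a call lost in DESeq2 and without WT replicate 1, CBE-KO replicate 1 or CBE-KO replicate 2. Gbx2 fell from 29.1 ± 0.346 to 9.93 ± 0.124 CPM (-1.55, edgeR adjusted p = 5.79e-09).

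**Figure D4:**
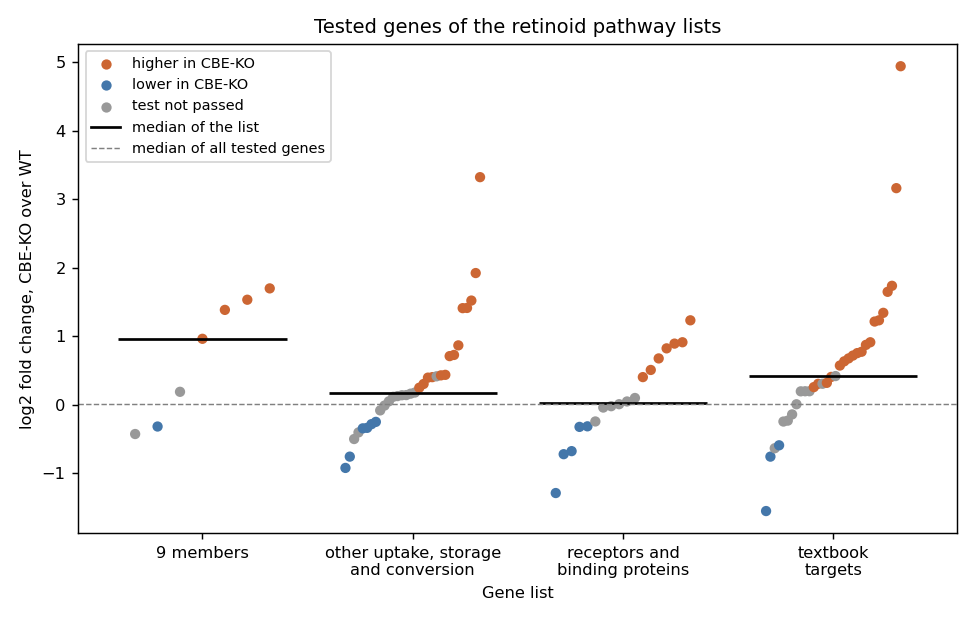
Log2 fold change of CBE-KO over WT (vertical axis) of each tested gene in the 4 lists (horizontal axis, genes ordered by value within a list; colours give the test's call, black lines the list median and the dashed line the median of all tested genes). The medians are 0.96 for the members, 0.17 for other uptake, storage and conversion genes, 0.030 for receptors and binding proteins and 0.41 for textbook targets.

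Markers of 7 cell types or states were counted beside the 21.6% of all tested genes called higher and the 21.5% called lower. In bulk samples fewer cells of a type and less RNA per cell cannot be told apart. Of 10 pluripotency markers, 9 were tested, 7 were lower and 1 higher in CBE-KO, and the list summed to 4843 to 5034 CPM in WT and 3581 to 3624 CPM in CBE-KO. Of 14 markers of extraembryonic endoderm, a tissue that retinoic acid can induce and that carries retinol transport genes, 12 were tested, 6 were higher and 1 lower. They summed to 376 to 385 CPM in WT and 407 to 408 CPM in CBE-KO, with Ttr at or under the floor in every library. Of 8 neural progenitor markers, 5 were tested and 4 were higher, with sums of 35.9 to 36.4 CPM against 63.5 to 64.4 CPM. Neurog2 and Pax3 were at or under the floor. Of those called higher, Pax6 and Zfp521 passed the filter on low counts only through CBE-KO. Of 6 epiblast-like markers, 5 were tested, 2 were higher and 2 lower, and their sum was 212 to 218 CPM in WT and 105.6 to 105.9 CPM in CBE-KO. Most of that sum was Dnmt3b, a DNA methyltransferase gene, which fell by 1.13 on the log2 scale (edgeR adjusted p = 1.75e-11).

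Of 7 mesoderm and primitive streak markers, 6 were tested and 2 were higher, with sums of 17.1 to 17.8 CPM in WT against 20.2 to 20.6 CPM in CBE-KO. These 2, Kdr and Fgf8, passed the filter on low counts only through CBE-KO. Of 7 trophoblast markers, 6 were tested, 2 were higher and 1 lower, with sums of 89.9 to 100.9 CPM against 99.4 to 101.9 CPM and Elf5 at or under the floor. Of 8 fibroblast or feeder markers, 2 were tested and 1 was higher, with sums of 11.3 to 12.9 CPM against 14.8 to 17.6 CPM. The collagen gene Col1a1 had 48 and 50 counts in WT, against 95 and 100 in CBE-KO (log2 fold change 0.88, edgeR adjusted p = 0.00290), and Thy1 did not pass (0.037, edgeR adjusted p = 0.887). Col1a2 had 0 and 1 counts against 12 and 8, and Col3a1 had 0 and 0 against 8 and 1, and neither passed the filter on low counts. Dcn, Lum, Twist2 and Postn were at 0 counts in every library. The part of all these markers in the differences of the 9 genes was not tested.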

How the data were processed

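Each library came as 1 deposited table of read counts by Ensembl gene, whole numbers that the authors had not normalized. Per the submitters' processing notes, the tools of the series were HISAT2 2.1.0, HTSeq 0.9.1, DESeq2 1.18.1 and Bowtie2 2.3.1 on mm10, with no role given for each. Annotation release, use of strand and treatment of multiply mapped reads are not given in the sources used here, so genes with near-identical copies or overlapping partners are uncertain. Symbols matched 52403 of 52636 identifiers.

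Genes were kept by filterByExpr defaults (16005), scaled by TMM and tested with edgeR 4.0.16 in R 4.3.3 (glmQLFit and glmQLFTest, two-sided, no covariate), with Benjamini-Hochberg adjustment over all of them. The SE of a log2 fold change is its size over the root of the quasi-likelihood F, and intervals use the moderated degrees of freedom. The 3-count floor and all intervals cover counting error and replicate spread only, since the reads carry no molecular identifiers and may repeat a molecule. DESeq2 1.42.0 was an alternative. Replicate numbers come from the titles, and libraries of the same number departed from their group means with a correlation of 0.037 across genes.

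The members and lists were chosen with earlier results of these data known. Beside the members, the text names the 6 largest called changes of each list at 1 CPM or more in the higher group, the 4 most abundant tested genes of the uptake, storage and conversion list, the receptors, Crabp1, Crabp2 and Fabp5, and the 3 genes most like Cyp26a1. Coordinates and promoters are from RefSeq GRCm38.p6 by symbol. Exon lengths were not used, so where genes are called abundant or low this refers to CPM, which also depends on gene length. Capture-C samples were left out.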

Additional observations from a re-analysis of the deposited data

How the results depend on the processing

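The count of changed genes, 6895, was 4577 in DESeq2 (2047 higher, 2530 lower) and 1383 when a log2 change of at least 1 was also asked for. That last rule left 3 of 5 members, 5 of 20 other uptake, storage and conversion genes, 2 of 12 receptors and binding proteins and 8 of 22 targets. With library totals alone the median over all genes was 0.11 on the log2 scale, and 66.9% of changed genes were then higher, against 50.2% with TMM. Leaving out 1 library gave 5492 to 6420 changed genes, 4 to 6 members, 15 to 18 other conversion genes, 11 to 13 receptors and binding proteins and 21 to 22 targets; the group left with a lone library was assumed to vary like the other. With the replicate block 7028 genes and 5 members changed, and no call of a member was altered; with the block and upper-quartile scaling together Cyp26b1 did not pass (adjusted p = 0.0524). The labels do not pair the numbers. Rxrb, at 0.0096, was -0.0019 with median-of-ratios scaling, -0.0015 in DESeq2 and -0.057 to 0.074 with 1 library left out. Counts of 11 to 40 limit Aldh1a2, and those of Aldh1a1 and Aldh1a3 did not pass the filter on low counts. The cause of these differences was not tested, apart from the stricter rule, which calls fewer genes by construction.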

Other observations

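A DR5 in the promoter window was carried by 31 gene symbols, of which 5 were tested, and each of these 5 passed as higher in CBE-KO, beside 21.6% of all tested genes. This set was formed after the values of Cyp26a1 and Rarb were known, so no test was made. Besides those 2, the set held Syndig1, a synapse gene, with 16 and 12 counts in WT, against 52 and 82 in CBE-KO (log2 fold change 2.14, edgeR adjusted p = 8.02e-05). It also held Cfap45, a cilium gene, with 22 and 18 against 55 and 45 (1.20, edgeR adjusted p = 0.00323), and the biliverdin reductase gene Blvrb with 653 and 546 against 891 and 840 (0.41, edgeR adjusted p = 0.000260). For each of the 5 genes the groups did not overlap on the CPM scale, as was so for 70.4% of all tested genes.

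Genes beside Cyp26a1 on chromosome 19 were looked up by position after its value was known. Exoc6, 13.7 kb away beyond Cyp26c1, had a log2 fold change of -0.064 (edgeR adjusted p = 0.624), and Myof, 198 kb away on the other side, one of -0.19 (edgeR adjusted p = 0.0404). Cep55, 353 kb away, had one of -0.079 (edgeR adjusted p = 0.316). Hhex, 257 kb away and at a mean of 0.963 CPM, had one of 0.82 (edgeR adjusted p = 0.248) with a 95% interval of -0.34 to 1.98, which holds the Cyp26a1 value of 1.70.

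The 3 genes whose profile over the 4 libraries lay nearest to that of Cyp26a1, by Euclidean distance of centred log2 CPM, were 4930502E18Rik (0.0574), the noncoding RNA gene Mirg (0.0722) and the transcription factor gene Sox4 (0.100). Their log2 fold changes were 1.69, 1.77 and 1.61, and with 4 libraries in 2 groups such likeness mostly restates the difference between groups.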
